A study of Drosophila melanogaster with 39 samples.

Results

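Accessory gland protein (Acp) and seminal fluid protein (Sfp) genes were followed through RNA-seq of Drosophila melanogaster testes. The members were all genes whose symbol starts with Acp or Sfp followed by a digit, without the cuticle gene Acp65Aa. This gave 46 of 13659 genes, 18 of them Acp and 28 Sfp. The study asked how a testis version of the PAF1 transcription complex shapes gene expression, using mutants of its Cdc73L, Ctr9L, Leo1L and Paf1L subunits. Whole testes (polyA RNA, 3 libraries a group) came from 1 to 3 day old males transheterozygous for 2 alleles of 1 gene, labelled Cdc73L TH1, Ctr9L TH2, Leo1L TH1, Leo1L TH1 from an inverted cross, and Paf1L TH2. Their controls were the stocks w1118 iso and w1118. Spermatocytes sorted for GFP came from males homozygous for Leo1L FS1 or Paf1L FS1 and from w1118 controls, with 3 independent sorts a group. All sorted groups, controls included, carried an endogenous GFP tag on Cdc73L, the sort purity was given as at least 85%, and each sorted value joins 2 libraries of 1 sort, one rRNA-depleted and one not.

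Seminal fluid proteins are made by the male accessory glands, the ejaculatory duct and the ejaculatory bulb, and pass to the female with the sperm, where they change egg laying, sperm storage, feeding and readiness to mate again. The glands and duct are joined to the base of the testis through the seminal vesicles, and gland cells, rather than the germline, are the known main source of most of these transcripts. Ovulin (Acp26Aa) stimulates ovulation, Acp36DE is needed for sperm storage, Acp29AB is a lectin linked to sperm storage, and Acp62F and Acp76A are a protease inhibitor and a serpin. Many Sfp genes were named after proteins found in transferred ejaculate, by their place on the cytological map, and their single functions are mostly unknown. Acp1 fits the naming rule but is annotated as an adult cuticle protein. It was counted as a member and left out of summed levels, which cover 45 genes.

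All 46 genes have a position in the reference annotation (dm6 coordinates), 24 on chromosome 2L, 8 on 2R, 8 on 3L and 6 on 3R. Several lie side by side: Acp26Ab and Acp26Aa (2L, 5892298 to 5892862 and 5892883 to 5893896) are 20 bases apart. Acp53C14a, Acp53C14b, Acp53Ea and Acp53C14c follow each other on 2R with gaps of 224, 342 and 440 bases. Sfp33A4 and Sfp33A2 are 226 bases apart on 2L. Acp36DE (2L, 18356047 to 18359028) lies on the opposite strand inside the gene Fas3 but shares 0 bases with its exons. By contrast, all 243 exon bases of Acp95EF (3R, 24228975 to 24229279) lie in exons of the signal peptidase gene Spase22-23 on the opposite strand. Sfp78E shares 134 exon bases with CG11248, Sfp84E shares 27 with Os-C, and the strand setting of the counting is not given in the sources used here, so reads of such pairs cannot be told apart.

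Values are the submitters' GeTMM signal per gene, a normalised value. The median smallest value above 0 of a gene in whole testes was 0.0933 for short genes and 0.198 for long ones, the opposite of what division by length would give, so levels of different genes are not ranked. From the smallest steps in the values, a library held about 8.69 to 12.8 M reads in whole testes and 7.98 to 20.9 M in sorted cells. A signal of 0.224 to 0.376 (whole testis) or 0.145 to 0.383 (sorted) stands for 3 reads and marks what can be told from 0. Of the 46 members, 37 reached a mean signal of 1 over the 21 testis libraries and 6 did so over the 9 sorted columns, and these were tested. The CG10887 (Leo1L) signal was 15.5 to 18.2 in the 6 Leo1L testis libraries, against 53.7 to 77.3 in the 15 others, and CG12674 (Paf1L) was 2.84 to 6.67 in Paf1L testes, against 42.5 to 59.7 in the 18 others. CG9899, the Ctr9L gene, was 9.91 to 10.7 in Ctr9L testes, against 106 to 131 in the 18 others. For the Cdc73L label no such check was made. The summed signal of 9 germline and spermatocyte genes, mostly of Mst77F and ProtA, stayed between 2326 and 3043 over all testis libraries.

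The 45 genes together varied 142-fold between testis libraries, and most of that spread lay inside groups. Their summed signal was 32.5, 45.9 and 446 in the 3 Cdc73L libraries. It was 665, 1228 and 4624 in Ctr9L, 1560, 1259 and 1768 in Leo1L, 392, 2688 and 38.5 in the inverted Leo1L cross, and 96.6, 1631 and 4175 in Paf1L testes. It was 1358, 599 and 2385 in w1118 iso and 975, 1095 and 2693 in w1118 controls. Replicate 3 was the highest library in 6 of the 7 groups, and the labels do not say that a number marks a shared day or batch. Further, 4 libraries stood far below the rest: Cdc73L replicates 1 and 2, replicate 3 of the inverted Leo1L cross and Paf1L replicate 1. Groups differed most in evenness, with a highest-to-lowest ratio of 1.40 among Leo1L libraries, 69.8 in the inverted cross, 43.2 in Paf1L, 13.7 in Cdc73L and 6.96 in Ctr9L testes, against 3.98 in w1118 iso and 2.76 in w1118. The members' share of all signal was 0.00331% in the lowest library (Cdc73L replicate 1) and 0.466% in the highest (Ctr9L replicate 3). In the 4 low libraries 19 to 21 of the 46 members had a signal of at least 3 reads, and in the 17 others 34 to 42 did. In whole testes, fewer gland cells on the dissected tissue and less RNA per cell cannot be told apart.

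**Figure D1:**
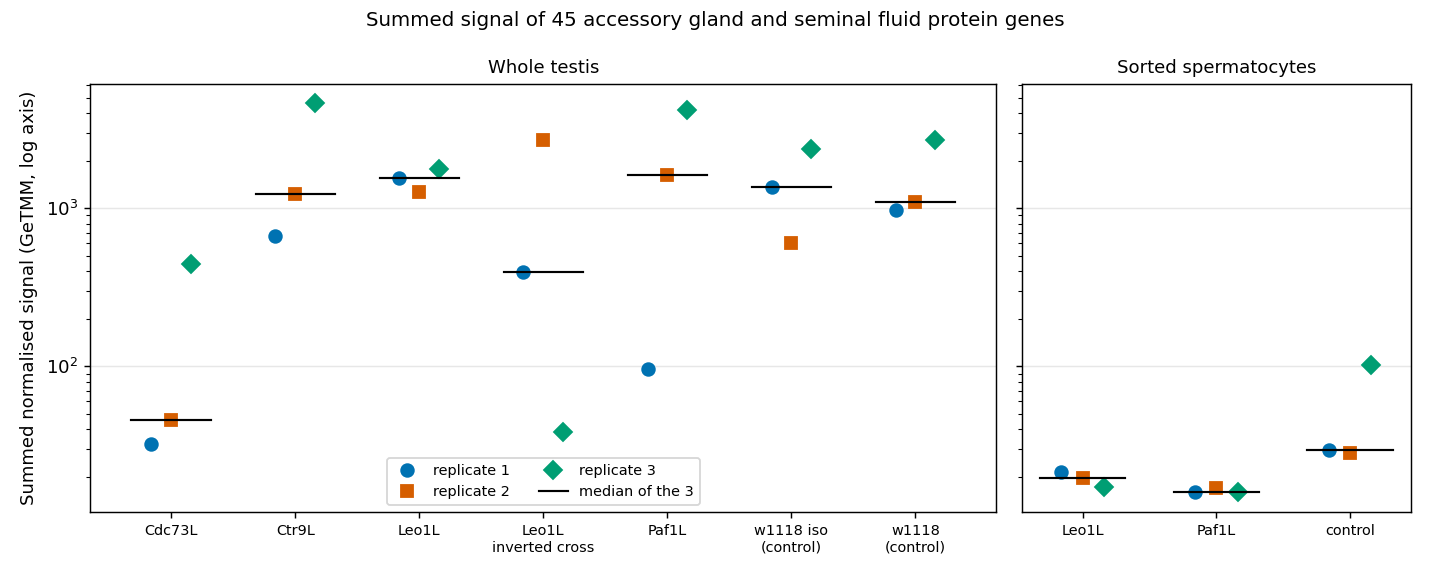
Summed signal of the 45 genes (Acp1 left out) in each library, on a log axis, for 7 whole-testis groups and 3 groups of sorted spermatocytes; each point is 1 library or sorted column and the bar is the median of the 3. Whole-testis libraries run between 32.5 and 4624 with large spreads inside groups, and the third sorted control column (102) lies above the other 8 sorted columns.

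By the median of their libraries, Cdc73L testes had the lowest summed signal, and single members followed. Acp36DE had a signal of 12.3, 14.4 and 178 in Cdc73L testes, against 560, 249 and 1016 in w1118 iso and 399, 428 and 1185 in w1118 testes. All 3 mutant libraries lay below all 6 controls, and the third mutant library was much nearer to them than the other two. Its log2 fold change was -4.06 (SE 1.17, limma with Benjamini-Hochberg adjusted p = 0.0190). Acp26Aa, the ovulin gene, had 0.604, 1.47 and 24.6 in Cdc73L testes, against 82.6, 29.0 and 135 in w1118 iso and 59.5, 61.6 and 161 in w1118 testes, a log2 fold change of -4.05 (SE 1.25, limma adjusted p = 0.0271). The largest fall among members was that of Acp53C14a, which had 0.621, 1.93 and 39.2 in Cdc73L testes, against 109, 50.2 and 245 in w1118 iso and 73.5, 97.9 and 207 in w1118 testes. Its log2 fold change was -4.30 (SE 1.29, limma adjusted p = 0.0231), and again the groups did not overlap.

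In all, 21 of the 37 tested members were called lower in Cdc73L testes and 0 higher, with a call set at an adjusted p below 0.05 together with a log2 difference no smaller than 1. Of all 10925 tested genes, 1.81% were called lower in that comparison. Estimates were below 0 for 37 of 37 members, with a median log2 fold change of -2.09, against 0.02 over all genes. The members' standard errors were also large, with a median of 0.80 on the log2 scale, against 0.11 over all genes. Every Cdc73L library lay below every control library for 23 of the 37 members, against 7.44% of all tested genes.

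The 3 other genes of the Acp53 cluster shared the pattern to different degrees. Acp53Ea averaged 11.8 ± 17.9 in Cdc73L testes (SD, n = 3) and 99.7 ± 54.7 in controls (SD, n = 6), with a log2 fold change of -3.92 (SE 1.24, limma adjusted p = 0.0303). Acp53C14b fell by 3.97 on the log2 scale (limma adjusted p = 0.03004). Acp53C14c was not called, at -2.09 (limma adjusted p = 0.104), and its signal was 0.276, 0.0954 and 3.85 in Cdc73L testes, against 8.99, 4.49 and 13.7 in w1118 iso and 3.10, 3.83 and 15.9 in w1118 testes. The third Cdc73L library thus lay inside the control range for this gene. Acp26Ab, which neighbours Acp26Aa, was likewise not called (-2.41, limma adjusted p = 0.0691), with 0.408, 0.403 and 4.07 in Cdc73L testes, against 9.79, 3.05 and 23.6 in w1118 iso and 7.04, 10.2 and 22.8 in w1118 testes.

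Acp62F, a protease inhibitor gene, had 1.09, 1.77 and 22.9 in Cdc73L testes, against 65.2, 37.5 and 100.0 in w1118 iso and 41.7, 40.2 and 133 in w1118 testes, a log2 fold change of -3.60 (limma adjusted p = 0.0414). Acp76A, a serpin, had 0.786, 1.14 and 15.96 in Cdc73L testes, against 42.3, 20.0 and 67.9 in w1118 iso and 28.0, 36.4 and 106 in w1118 testes, with a log2 fold change of -3.45 (limma adjusted p = 0.0471). For both genes every Cdc73L library lay below every control, and Cdc73L replicate 3 was the highest mutant library. The lectin gene Acp29AB fell by 2.27 (limma adjusted p = 0.0305).

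The smallest adjusted p among the members was that of Acp32CD, at 0.0111 by limma, with a log2 fold change of -3.34 (SE 0.87). Its signal was 0.257, 0.0891 and 9.44 in Cdc73L testes, against 20.7, 8.87 and 34.9 in w1118 iso and 26.9, 23.0 and 42.2 in w1118 testes. Here the groups overlapped, since Cdc73L replicate 3 lay above w1118 iso replicate 2. The other called Acp genes were Acp33A (-3.38), Acp63F (-3.48) and Acp95EF (-2.74). The called Sfp genes were Sfp33A3 (-2.99), Sfp65A (-2.59), Sfp77F (-2.32), Sfp24C1 (-2.26), Sfp51E (-2.19), Sfp26Ad (-2.05), Sfp53D (-1.75), Sfp84E (-1.73) and Sfp23F (-1.35), all as log2 fold changes. Sfp23F was listed at 0 in all 3 Cdc73L libraries and averaged 1.71 ± 0.936 in controls (SD, n = 6). Because the log2 scale adds 1 to each value, fold changes of such low genes are understated.

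The sex peptide gene SP carries a symbol outside the naming rule and is no member. Other gland genes, from lists that hold no member, moved with the members in Cdc73L testes. All 9 genes of the sex peptide network were called lower (SP, whose peptide switches the female's response after mating, and 8 genes that act with it), as were 4 of 7 other gland products. The gland regulators prd, Abd-B and dve had 0 of 3 called in any whole-testis comparison. Ejaculatory duct genes had 0 of 4 called, with a median log2 fold change of -1.14, muscle genes 0 of 9, with a median of -0.29, and fat body genes 0 of 4, with a median of -0.96. Haemocyte genes had 0 of 4 called, with a median of -0.81 and a summed signal, mostly of Col4a1 and vkg, of 136 to 282 in Cdc73L, against 255 to 268 in w1118 iso and 379 to 404 in w1118 testes. The summed level of the 9 sex peptide network genes was 3.67 to 62.6 in Cdc73L libraries, against 69.1 to 251 in w1118 iso and 152 to 303 in w1118. How much gland tissue stayed on each dissected testis is not stated in the labels, and its part and that of other cells in these results were not tested.

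The Cdc73L count rests on single libraries. Without Cdc73L replicate 1 or without replicate 2, 0 members were called. Without replicate 3, which has the highest gland signal of that group, 16 were called. Leaving out w1118 replicate 3 gave 5, w1118 iso replicate 3 gave 9 and w1118 iso replicate 1 gave 13. These counts stand without the share of all genes called in each refit. With the mean level of the 16 other gland genes as a covariate in the fit, 0 of 37 members were called, and the median log2 fold change of the members was 0.03. That mean was itself lower in Cdc73L testes (0.849, 1.11 and 3.49) than in controls (3.65 to 5.54). The covariate removes any difference that it shares with the members, whatever its source, so this fit cannot tell sources apart.

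**Figure D2:**
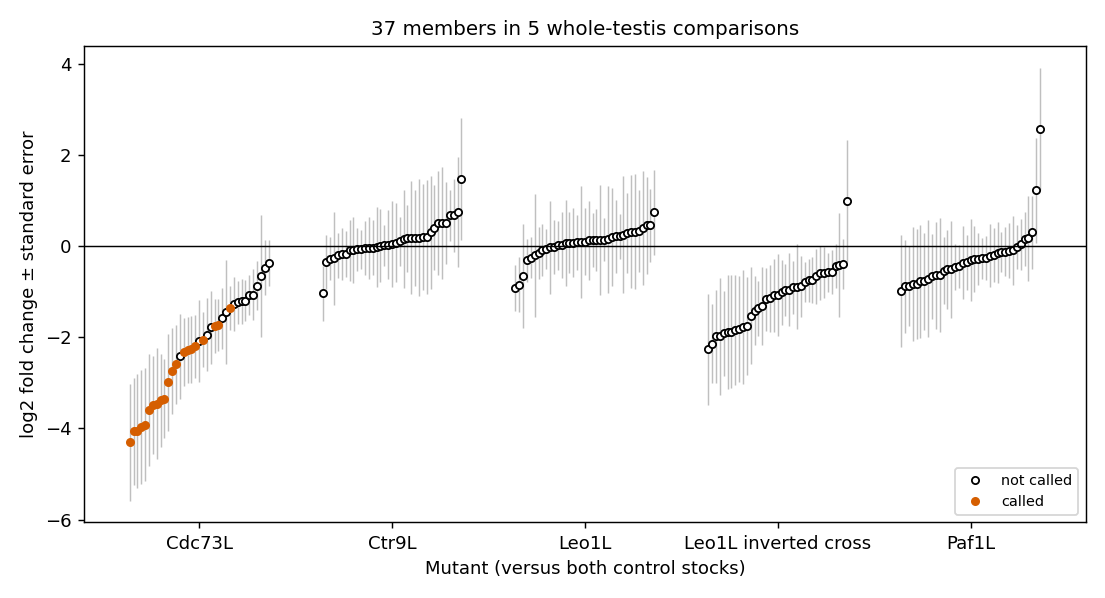
Log2 fold change with its standard error for the 37 tested members in the 5 whole-testis mutants, each against both control stocks; filled points passed the call rule. All 37 estimates lie below 0 in Cdc73L testes (median -2.09), most lie below 0 in the inverted Leo1L cross (median -1.08) with 0 calls, and the other 3 mutants scatter nearer to 0.

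No member was called in any other whole-testis mutant by limma. In Ctr9L testes 15 of 37 estimates were below 0, the median log2 fold change was 0.05 and 0 members had an unadjusted p under 0.05; 0.906% of all genes were called in either direction. In Leo1L testes 11 of 37 estimates were below 0 with a median of 0.11, and 0 members had an unadjusted p under 0.05, beside 2.23% of all genes called. In Paf1L testes 31 of 37 were below 0 with a median of -0.30 and 0 at an unadjusted p under 0.05, beside 2.38% of all genes called. The standard errors are the same as in the Cdc73L comparison, a median of 0.80 over the members, because each gene's spread was shared over all 7 groups. The groups themselves differed in spread. The SD of the log2 summed signal was 0.248 in Leo1L, 1.43 in Ctr9L, 2.83 in Paf1L and 3.07 in the inverted Leo1L cross, and 0.819 over both control stocks. Smaller differences were not detectable at the shared spread, which is not the spread of the groups compared.

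The inverted Leo1L cross had the next lowest median of the summed signal. Of 37 estimates 36 were below 0, with a median log2 fold change of -1.08, and 0 members were called, against 2.54% of all genes. Unadjusted p was under 0.05 for Acp32CD and Sfp26Ad. Acp32CD had 4.69, 19.1 and 0.547 in the inverted cross, against 20.7, 8.87 and 34.9 in w1118 iso and 26.9, 23.0 and 42.2 in w1118 testes (log2 fold change -2.13, limma adjusted p = 0.0708). The groups overlapped through replicate 2 of the cross. Without that replicate, the highest of the cross, 7 members were called lower. They were Acp32CD, Acp33A, Acp62F, Acp95EF, Sfp26Ad, Sfp77F and Sfp84E. The share of all genes called in that refit is not given here, so this count has no background beside it. In the same comparison 2 of 9 muscle genes, 2 of 4 fat body genes and 2 of 4 haemocyte genes were called lower; the summed haemocyte signal, mostly of Col4a1 and vkg, was 121 to 236 in the inverted cross, against 255 to 268 in w1118 iso and 379 to 404 in w1118, and its relation to the members was not tested.

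Both crosses that carry Leo1L TH1 can be set side by side. The summed signal was 392, 2688 and 38.5 in the inverted cross, against 1560, 1259 and 1768 in the other cross. Of 37 members 0 were called between them, with 33 estimates below 0 and a median of -1.31, while 0.00915% of all genes were called. Acp32CD was the member with an unadjusted p under 0.05 (log2 fold change -2.42, limma adjusted p = 0.809). The crosses overlapped, since the inverted cross held both the highest and the lowest library of the 6.

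Cdc73L testes were also compared directly with each other mutant, as the comparisons above share their controls. Against Leo1L testes 1 of 37 members was called (1.16% of all genes in either direction), and 27 had an unadjusted p under 0.05. That member was Acp32CD, with 0.257, 0.0891 and 9.44 in Cdc73L testes, against 36.01, 21.1 and 32.4 in Leo1L testes, without overlap (log2 fold change -3.63, limma adjusted p = 0.0377). It was called in 1 of 6 fits that left out 1 of these libraries. Against Ctr9L testes 0 members were called (0.0641% of all genes) and 26 had an unadjusted p under 0.05, with a median log2 fold change of -2.19. Against Paf1L testes 0 were called (0.906% of all genes) and 17 had an unadjusted p under 0.05. Against the inverted Leo1L cross 0 were called (0.705% of all genes), 0 had an unadjusted p under 0.05, and the median was -1.01. The share of all genes with an unadjusted p under 0.05 is not given for these comparisons, so those member counts have no background beside them.

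**Figure D3:**
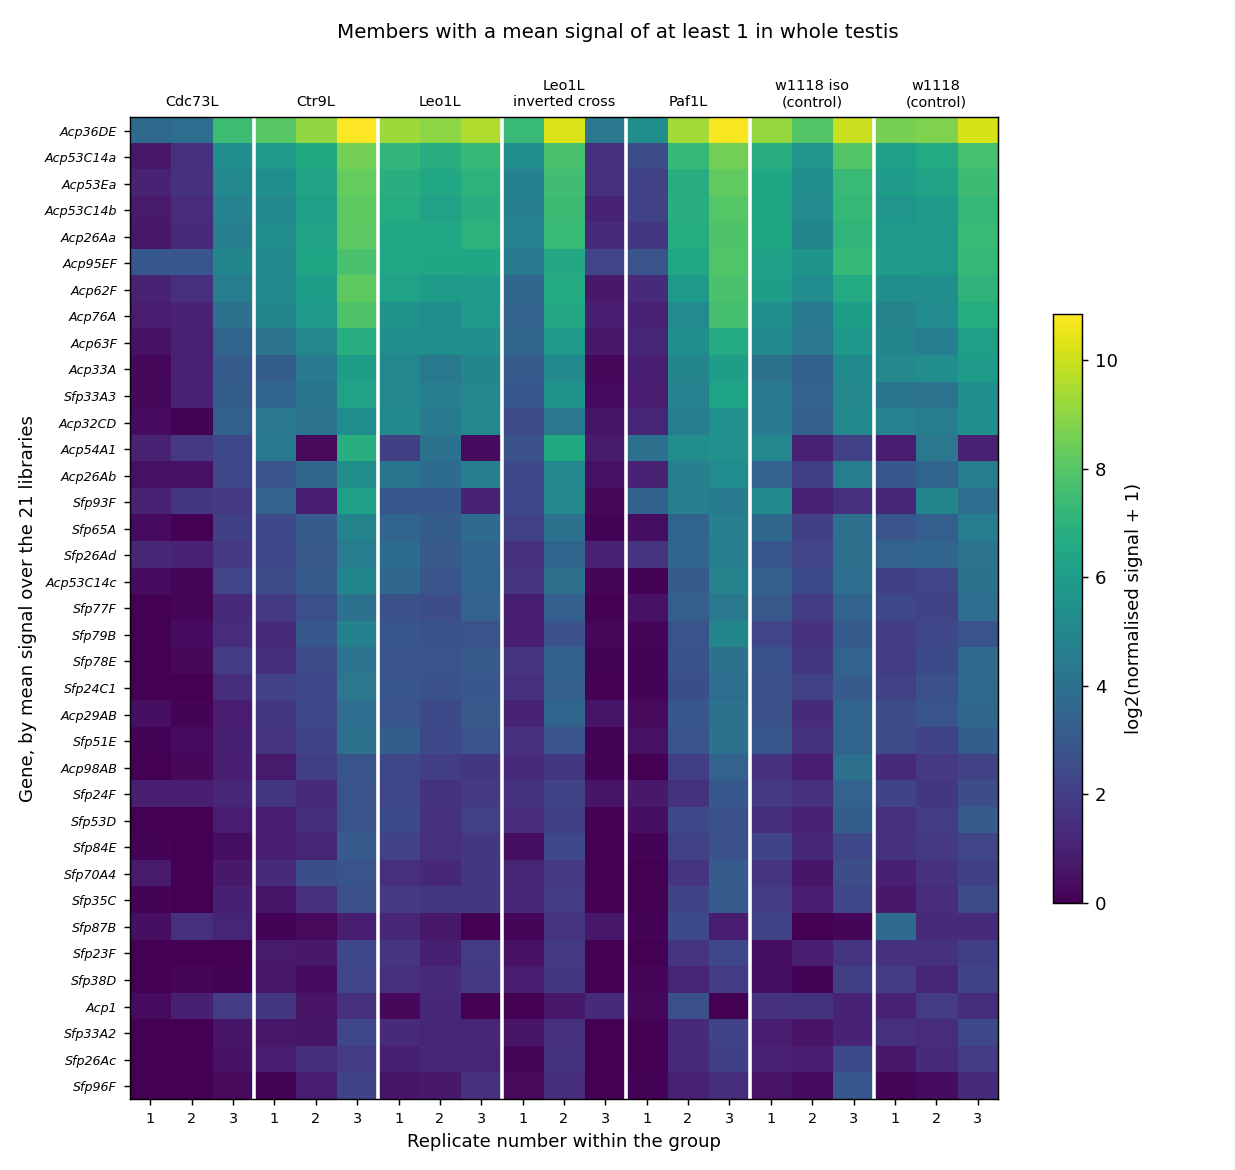
Signal of the 37 members with a mean of at least 1, as log2(signal + 1), in 21 whole-testis libraries; rows are ordered by mean signal. Whole columns brighten or darken together, with the 4 low libraries dark, while Acp54A1, Sfp93F, Sfp87B and Acp1 follow another order.

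The members' proportion to other gland genes varied less than their levels in most cases. The 15 other gland genes used for this (the sex peptide network and 6 further gland products, without Spn77Bc) summed to between 11.2 and 1902 per library, a 170-fold range. Of 36 members, 20 had a signal in all 21 libraries, and the proportion of 11 of these varied by less than 5-fold. Among the narrowest, Acp36DE gave 61.0 to 136 per 100 units of that sum, Acp53Ea 9.22 to 17.5 and Acp63F 3.84 to 7.14, while their own levels ranged 151-fold, 306-fold and 256-fold. Proportions of others varied more, by 11.1-fold for Acp29AB, 13.2-fold for Acp32CD, 15.1-fold for Sfp26Ad and 35.6-fold for Sfp24F. In the 17 libraries where the sum reached 100, that sum itself ranged 7.53-fold. There the proportion varied by less than 5-fold for 27 of 36 members, and over the 34 members with a signal in all 17 its median range was 3.27-fold, against 12.9-fold for the levels. Acp36DE alone made up 31.3 to 50.4% of the members' summed signal in every testis library. Acp36DE has 2923 exon bases and values did not look divided by length, so this is a share of signal, not of transcripts. These proportions are a description, and both sides come from the same library.

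In the 4 libraries with the least gland signal, the proportions of Acp95EF, Sfp26Ad and Sfp24F to other gland genes were higher than elsewhere. Those of Acp54A1, Sfp93F and Sfp87B were raised in some of the 4, up to 48.3, 30.0 and 9.49 per 100 units. Acp95EF had 6.98, 6.52, 3.87 and 5.79 in Cdc73L replicates 1 and 2, replicate 3 of the inverted Leo1L cross and Paf1L replicate 1. Per 100 units of other gland signal this was 62.4, 34.7, 27.2 and 18.8, against 8.38 to 17.7 in the 17 other libraries. Sfp26Ad gave 11.02, 5.63, 7.50 and 7.11 in the same 4 libraries, against 0.729 to 2.07 elsewhere. Sfp24F gave 7.76, 4.58, 3.68 and 2.16, against 0.218 to 0.843 elsewhere. The proportions of Acp95EF, Sfp26Ad and Sfp24F in the 4 low libraries lay above the range of the 17 others. The gene that overlaps Acp95EF, Spase22-23, had a signal of 81.0 to 112 in all testis libraries. Sfp26Ad (2L, 5942623 to 5943304) and Sfp24F (2L, 4441429 to 4442060) overlap no annotated gene.

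Between the 2 control stocks, 1 of 37 members was called with the gland level as a covariate. That count is not set apart from the share of all genes called in the same fit (1.5%). Every other whole-testis comparison had 0 members called with this covariate. Acp33A (2L, 11591339 to 11591678) had 15.98, 9.35 and 34.9 in w1118 iso testes, against 34.0, 38.6 and 61.1 in w1118 testes, which overlapped. In the plain fit, 0 of 37 members were called (1.47% of all genes), 0 had an unadjusted p under 0.05, and Acp33A had a log2 fold change of -1.26 (limma adjusted p = 0.574). Per 100 units of other gland signal it gave 2.44, 3.45 and 3.06 in w1118 iso, against 6.34, 7.48 and 5.64 in w1118, without overlap. With the gland level as a covariate the log2 fold change was -1.02 (limma adjusted p = 0.00398), the 1 member of 37 called, while 1.5% of all genes were called. Leaving out each control library in turn gave adjusted p values of at most 0.0260 and log2 fold changes of -1.15 to -0.80, with a call in 4 of 6 fits. Sfp33A2 had an adjusted p under the threshold in the same fit but missed the fold limit (log2 fold change -0.86, limma adjusted p = 0.0489). Its signal was 0.753, 0.486 and 1.04 in w1118 iso, against 1.95, 1.56 and 4.06 in w1118 testes, and per 100 units of other gland signal 0.115, 0.179 and 0.0913 in w1118 iso, against 0.362, 0.304 and 0.374 in w1118, without overlap on either scale. In the 15 mutant libraries the proportion of Acp33A was 1.26 to 5.22, below every w1118 library.

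Not all members followed the gland. Acp54A1 and Sfp93F tracked genes of the ejaculatory duct. Acp54A1 had 20.4, 0.224 and 114.8 in the 3 Ctr9L libraries, where Dup99B, the duct peptide related to sex peptide, had 27.5, 1.84 and 133. The order of libraries was the same for both genes. Acp54A1 had 14.9, 40.7 and 44.0 in Paf1L testes, against 31.4, 0.972 and 3.337 in w1118 iso and 0.757, 18.5 and 0.992 in w1118 testes (log2 fold change 2.59, limma adjusted p = 0.163), with overlap. Sfp93F had 9.85, 0.784 and 72.2 in the Ctr9L libraries, and in controls 35.3, 1.05 and 1.84 in w1118 iso and 1.41, 30.9 and 13.8 in w1118. Dup99B had 56.7, 1.14 and 5.40 in w1118 iso and 2.20, 39.5 and 18.2 in w1118. Across the 21 libraries both members correlated more with the mean of 4 duct genes (r = 0.94 for Acp54A1 and 0.97 for Sfp93F) than with the 15 gland genes (r = 0.38 and 0.53). Acp54A1 departed from the duct genes in w1118 replicate 3. These r values describe libraries that share dissection and depth, and no test was made.

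Sfp87B tracked the ejaculatory bulb gene Ebp, which encodes a protein of the mating plug. Sfp87B had 13.0, 1.56 and 1.55 in w1118 testes, where Ebp had 74.3, 4.22 and 12.3. It had 3.67, 0 and 0.105 in w1118 iso testes, where Ebp had 34.2, 2.19 and 1.30. The high libraries were the same for both genes, also in Paf1L replicate 2 (4.35 for Sfp87B and 28.8 for Ebp). The bulb gene EbpII, at most 3.81, also peaked in w1118 replicate 1. EbpIII, another bulb gene with more signal, did not share this order. It had 62.7, 59.8 and 57.1 in w1118 and 86.85, 98.6 and 82.9 in Cdc73L testes. Sfp60F, which stayed under the filter and was picked after its values were seen, had its highest signal, 5.04, in the same w1118 library. Acp1, the cuticle gene, followed none of these sources, with 0 to 5.29 over the testis libraries and 0.0483 at most in sorted cells.

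**Figure D4:**
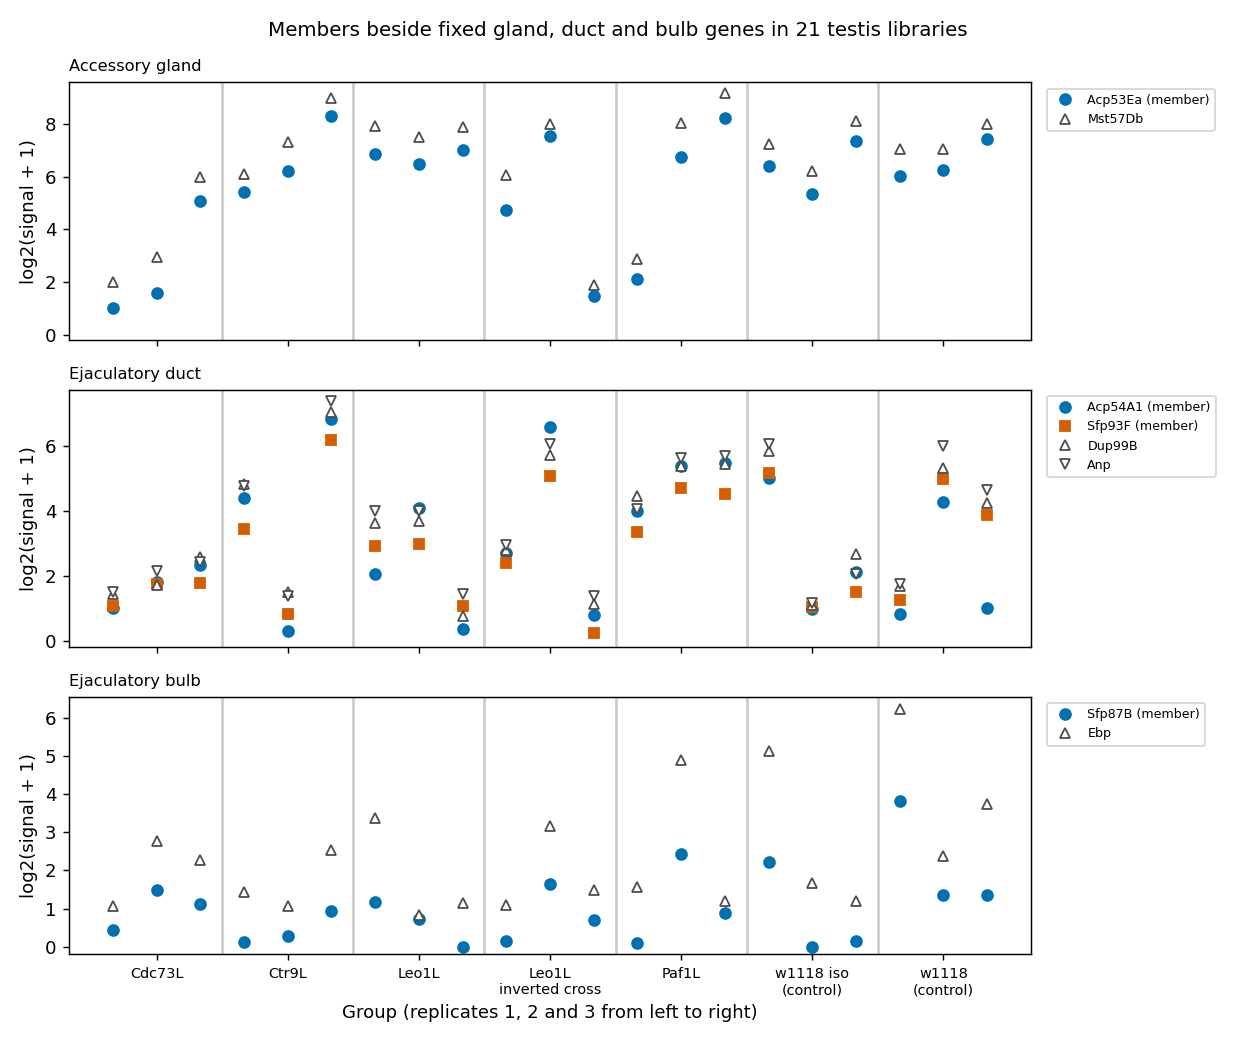
Signal as log2(signal + 1) of members (filled) beside fixed genes of gland, duct and bulb (open) in 21 whole-testis libraries. Acp53Ea moves with the gland gene Mst57Db, Acp54A1 and Sfp93F with the duct genes Dup99B and Anp, and Sfp87B with the bulb gene Ebp. The 3 panels differ: Ctr9L replicate 2 is in the middle of the gland panel and low in the duct panel. The bulb panel, which does not show EbpIII, peaks in w1118 replicate 1.

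The 9 members below the filter in whole testes reached at most 5.04, and 1 of them, Sfp24Bd, was listed at 0 in all 21 libraries. Its 3 cluster neighbours were near 0 as well: Sfp24Ba reached 0.108 and Sfp24Bc 0.178, while Sfp24Bb reached 1.98 in 1 w1118 library. Acp24A4 reached 1.99, Sfp33A1 2.64, Sfp33A4 3.11 and Sfp36F 1.47.

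Among the 10888 tested genes that are no members, 136 had a correlation over 0.9 with the members' mean log2 level across the 21 libraries. The 10 most alike were CG31680, Spn28F, Obp56f, CG17472, CG14034, aqrs, PH4alphaNE2, CG43392, Ugt50B3 and lectin-30A, with r from 0.986 (lectin-30A) to 0.990 (CG31680). Within the 17 libraries outside the 4 low ones, r was still 0.958 (PH4alphaNE2) to 0.984 (Spn28F). aqrs belongs to the sex peptide network, and Spn28F encodes a serpin. Of the 16 fixed gland genes 15 passed 0.9, and Spn77Bc, at 0.53, did not.

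Sorted spermatocytes held little signal of these genes. Their summed signal was 21.3, 19.8 and 17.4 in Leo1L, 15.96, 17.1 and 16.01 in Paf1L and 29.4, 28.4 and 102 in control columns. Of these sums, Acp95EF alone gave 9.09, 12.85 and 9.17 in Leo1L and 8.90, 10.1 and 7.51 in Paf1L. It gave 17.4, 18.1 and 19.05 in control columns. Acp95EF was the largest part of every sum but that of the third control column. Its reads cannot be told from those of the overlapping gene on the opposite strand, so the sums carry that uncertainty too. Both tables were normalised separately. The third control column stood apart: 38 of 46 members had a signal above 0 there, against 13 to 22 in the other 8 columns. Its Acp36DE signal was 31.6 and that of the gland gene Mst57Db 16.4, while Mst57Db was 1.62, 0.0595 and 0.241 in Leo1L, 0, 0 and 0.0715 in Paf1L and 0 and 1.91 in the other control columns. Acp36DE made up 31.0% of the summed signal in that column, against 4.53 to 13.1% in the others. Of the 40 members under the filter, 5 were listed at 0 in all columns and the highest value was 5.95 (Acp53Ea, in the same control column).

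Acp36DE had 2.55, 1.87 and 1.26 in Leo1L spermatocytes, 0.724, 1.14 and 1.45 in Paf1L spermatocytes and 3.66, 3.72 and 31.6 in controls. Mutant and control columns did not overlap. Its log2 fold change was -2.10 in Paf1L (SE 0.58, limma adjusted p = 0.0180) and -1.65 in Leo1L (SE 0.58, limma adjusted p = 0.0710), so that it was called in Paf1L cells, the 1 call among 6 members, against 1.44% of all genes called lower. Without the third control column the change in Paf1L was -1.17 (limma adjusted p = 0.0341), and without Paf1L replicate 1 it was -1.97 (limma adjusted p = 0.0572). In Leo1L cells 0 of 6 members were called, against 4.05% of all genes, and 2 had an unadjusted p under 0.05. Leaving out control column 1 or 2 added Acp36DE in Leo1L cells, with adjusted p of 0.0426 and 0.0397. The gland product Mst57Da, which passed the filter only through the control columns, had 0.406, 0.1785 and 0.145 in Leo1L, 0, 0.425 and 0 in Paf1L and 0.373, 2.16 and 9.23 in control columns, with overlap. The part of gland RNA in the Acp36DE result was not tested.

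Acp95EF had similar signal in all 3 control columns. It had 9.09, 12.8 and 9.17 in Leo1L, 8.90, 10.1 and 7.51 in Paf1L and 17.4, 18.1 and 19.1 in control columns, with every mutant column below every control. Its log2 fold change was -0.77 in Leo1L (SE 0.19, limma adjusted p = 0.0151) and -0.97 in Paf1L (SE 0.19, limma adjusted p = 0.00271), both under the fold limit of a call. The third control column, high for Acp36DE, was not set apart for Acp95EF. Without it, the changes were -0.74 (limma adjusted p = 0.0569) in Leo1L and -0.94 (limma adjusted p = 0.0140) in Paf1L. Spase22-23, whose exons hold Acp95EF on the other strand, had 72.5, 84.9 and 86.5 in Leo1L, 78.8, 82.6 and 72.2 in Paf1L and 50.7, 75.3 and 64.2 in control columns. Its estimates were positive, 0.37 in Leo1L and 0.31 in Paf1L (limma adjusted p = 0.0789 and 0.110).

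Of the 4 remaining members, Sfp26Ad had 2.12, 2.40 and 3.11 in Leo1L, 2.99, 1.47 and 2.03 in Paf1L and 1.85, 1.36 and 2.44 in control columns, which overlapped. Sfp24F had 0.736, 1.05 and 1.35 in Leo1L, 0.746, 0.806 and 1.37 in Paf1L and 3.18, 1.74 and 1.28 in control columns. Neither was called. Both are among the 3 genes named above whose proportion to other gland genes was higher in testes with little gland signal. Acp26Aa had 0.979, 0.562 and 0.401 in Leo1L, 0.263, 0.1995 and 0.905 in Paf1L and 0.238, 0.378 and 5.25 in control columns, and Acp53C14a reached 0.968 in Leo1L, 0.179 in Paf1L and 7.37 in control columns. Both passed the filter through the third control column. Between Paf1L and Leo1L cells 0 of 6 members were called and 0 had an unadjusted p under 0.05, against 0.263% of all genes called; the estimates ran from -0.45 for Acp36DE to -0.05 for Sfp24F.

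**Figure D5:**
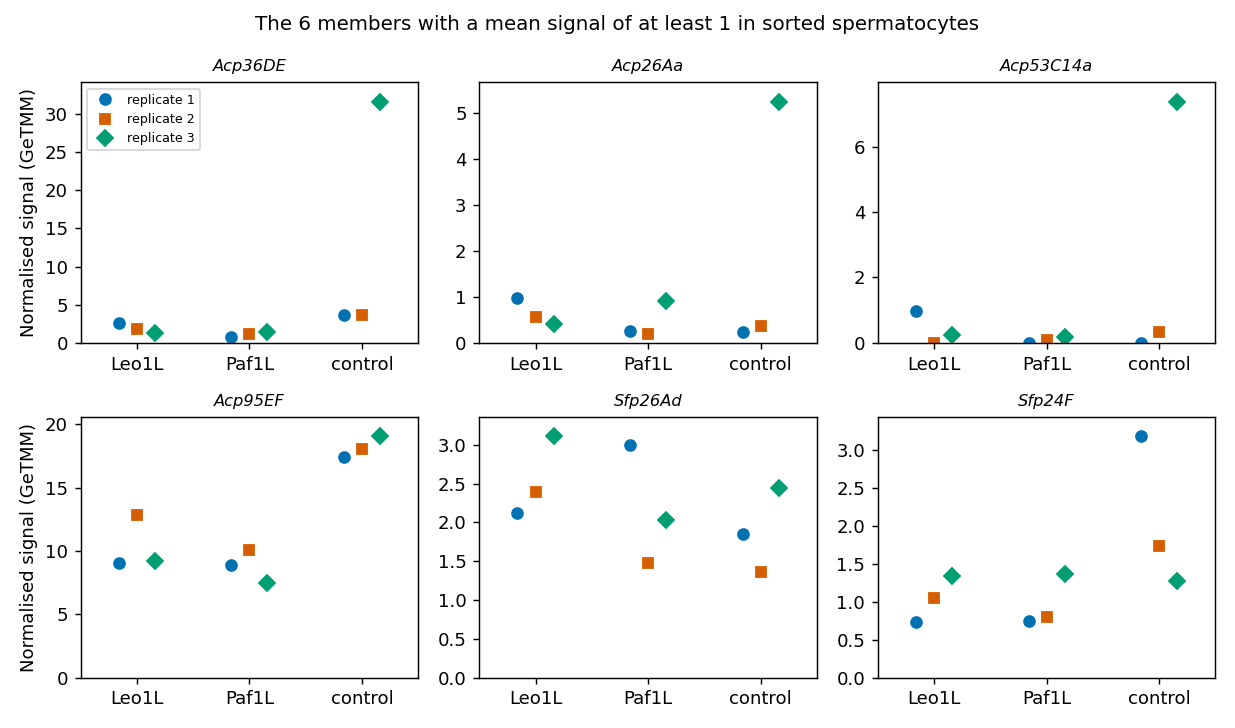
Signal in the 9 sorted columns of the 6 members with a mean of at least 1, on linear axes that start at 0, with 1 point a column. Acp36DE, Acp26Aa and Acp53C14a are high in the third control column, whereas Acp95EF is 17.4 to 19.1 in all 3 control columns and 7.51 to 12.8 in the mutant columns.

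A gene of the sex peptide network ran the other way in sorted cells. Sems, the seminase gene, had 3.21, 3.97 and 3.13 in Leo1L, 5.91, 3.65 and 5.47 in Paf1L and 0.248, 0.894 and 0.498 in control columns, without overlap. Sems passed the filter only through the mutant columns. Its log2 fold change was 1.54 in Leo1L and 1.96 in Paf1L, given without a test because the groups where Sems is high let it pass the filter. In whole Cdc73L testes, another mutant and tissue, it was among the sex peptide network genes that fell (-1.87, limma adjusted p = 0.0488). Its signal was 9.04, 6.76 and 9.30 in whole Leo1L testes and 0.6545, 6.82 and 18.6 in whole Paf1L testes. Control testes had 3.15 to 10.9 (w1118 iso) and 4.26 to 11.1 (w1118), with overlap. Markers of other cells did not all differ in one direction. Of the fat body genes, FASN1 averaged 53.9 ± 12.7 in Leo1L, 105 ± 35.7 in Paf1L and 7.72 ± 2.17 in control columns, whereas apolpp averaged 2.38 ± 0.211 in Leo1L, 2.22 ± 0.623 in Paf1L and 8.94 ± 1.44 in control columns (SD, n = 3 each). Of 6 tested muscle genes 0 were called in either mutant, and sls, which holds most of their summed signal, averaged 150.4 ± 18.1 in Leo1L, 131.6 ± 15.7 in Paf1L and 190.8 ± 20.5 in control columns (SD, n = 3 each). Their part in the members' values was not tested. Of the 2 gland regulators tested in sorted cells, dve rose in Paf1L cells by 1.26 (limma adjusted p = 0.0132). The other, prd, was not called and averaged 4.33 ± 2.205 in Paf1L and 5.86 ± 3.17 in control columns (SD, n = 3 each). Abd-B stayed under the filter.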

How the data were processed

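The deposited tables give the GeTMM signal of each gene, a normalised value made by the authors. The submitters' processing notes name STAR, Salmon, edgeR 3.34.0, DESeq2 and the dm6 build, and their roles and the strand setting are not given in the sources used here. Positions came from Ensembl release 115 (BDGP6.54, the dm6 assembly). Members and lists were chosen with earlier results of these data known. All members may be named; those with a mean of at least 1 are given by library and the others by range. Because the values are not counts (53.99 to 86.9% of low values were within 0.1 of a whole number of reads in whole testes), log2(signal + 1) of genes with a mean of at least 1 was fitted with limma 3.58.1 (R 4.3.3, trend), in 1 fit for each table without a replicate block. An alternative fit added the mean log2 level of 16 other accessory gland genes as a covariate. Mutants were set against the mean of both control stocks, with Benjamini-Hochberg adjustment over 10925 (whole testis) or 9495 (sorted) genes. Over all tested genes, same-numbered replicates did not deviate together (median r -0.01 over 63 whole-testis pairs and 0.08 over 9 sorted pairs), so numbers were not taken as pairs. The labels do not say that whole-testis replicates came from separate cultures, so their p-values measure the spread between samples, which may be technical. The fit was also run on simulated data in which each gene varied on its own, with the same spread in all groups. The members moved together by library, so that run does not bear on the member calls.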

Additional observations from a re-analysis of the deposited data

Results flagged for a closer look

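The difference between the Cdc73L and Leo1L mutants was tested directly for each member. Acp32CD was lower in Cdc73L than in Leo1L testes, with a log2 fold change of -3.63 (SE 1.008, limma adjusted p = 0.0377 over 10925 genes). Every Cdc73L library lay below every Leo1L library. With 1 of the 6 libraries left out, the log2 fold change was -4.69 to -3.06 and the adjusted p 0.0105 to 0.159.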

How the results depend on the processing

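Alternatives were fitted for the count of called members in each of the 10 comparisons. The counts here are of members alone, without the share of all genes called in each alternative. Cdc73L testes had 21 calls; there were 10 with a pseudocount of 5, 10 with w1118 and 2 with w1118 iso as the control, 0 with the gland score as a covariate, and 0 to 20 with 1 library left out. With no filter on low values 14 were called, and 19 with the control stocks as 1 group, an alternative chosen after seeing the data. With the covariate, log2 fold changes in Cdc73L testes turned positive for Acp53C14b (0.028), Acp53Ea (0.037), Acp62F (0.28), Acp76A (0.37), Acp95EF (0.20), Sfp24C1 (0.013), Sfp33A3 (0.38) and Sfp65A (0.13). The w1118 iso comparison gained 1 call with the covariate. In sorted Paf1L cells the 1 call became 2 with a pseudocount of 0.1 or no fold limit, 0 with a pseudocount of 5 or no filter, and 0 to 2 with 1 column left out. Sorted Leo1L cells had 1 without a fold limit and 0 to 2 with 1 column left out. Leaving out 1 library gave 0 to 7 calls in the inverted Leo1L cross and 0 to 1 (Acp1) in Paf1L testes. The replicate block gave 22 calls in Cdc73L testes, 1 in sorted Paf1L cells and 0 in the other 8 comparisons, so the pairing moved no count by over 1.5 times. The cause of these differences was not tested. Members with signal below the value of 3 reads are not told from 0.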
